A study of Mus musculus with 36 samples.

Results

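The comparison described here is the effect of CCM on macrophages that carried a deletion of Bmal1 and were stimulated with lipopolysaccharide (LPS). Its members were the 6 libraries labelled Bmal1-KO with LPS and CCM and the 6 labelled Bmal1-KO with LPS alone, taken by their labels, 12 of the 36 RNA-seq libraries in the series. The cells were bone marrow-derived macrophages (BMDMs) of genotype LysM-Cre;Bmal1 flox/flox on the C57BL/6 strain, from female mice aged 13 to 17 weeks, grown for 7 days with the growth factor MCSF. They were treated for 6 h with 100 nM LPS in the vehicle DMSO, or with 100 nM LPS and 100 µM CCM. The LysM promoter drives Cre in myeloid cells, and any cell in which Cre had not acted would still be in the culture. For reference the same exposure was read in 3 libraries per arm of Bmal1 flox/flox macrophages without the Cre (WT), and CCM alone was read against DMSO in 6 unstimulated Bmal1-KO libraries per arm.

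BMAL1 is the transcription factor that pairs with CLOCK on E-box sequences and drives the circadian oscillator of most cells. CCM, the Core Circadian Modulator, is a small molecule that was developed as a ligand of the PASB domain of BMAL1, and cells without BMAL1 lack that intended partner. LPS, a component of the outer membrane of Gram-negative bacteria, binds Toll-like receptor 4 on macrophages. The receptor signals through NF-kB and AP-1 to cytokine and chemokine genes and through IRF3 to interferon beta, which is secreted and acts back on the cells to induce antiviral effectors and interferon-induced GTPases. The comparison asks what CCM did to this response where its intended target had been deleted.

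The 12 libraries held between 15670327 and 27744012 gene counts. Levels below are CPM, the counts of a gene scaled to a common library size, with library sizes normalised by the TMM method. They are not divided by transcript length, so they compare a gene between libraries and not one gene with another. Of the 12 libraries 4 stood apart from the other 8, namely LPS replicate 6 and LPS+CCM replicates 2, 5 and 6. Genes of cytosolic ribosomal proteins took 5.66%, 3.37%, 4.35% and 6.08% of their counts in that order, against 2.17% to 2.35% in the other 8, and short transcripts were raised over long ones in the same 4. Because 3 of the 4 had received CCM, the count of calls is also given without replicate 6 of both arms and without all 4 libraries (5 LPS against 3 LPS+CCM, called the 8 libraries below). The 8 libraries were chosen after seeing the data and are part of the 12. Their values and adjusted p-values below are therefore descriptive and no independent test. The labels do not say whether replicates came from separate animals, so the p-values measure the spread between these libraries.

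All 10 macrophage markers were detected in the 12 libraries. Their summed level was 13490 to 18690 CPM with LPS and 13230 to 22200 CPM with LPS and CCM, and Lyz2, the lysozyme gene whose promoter drives Cre, made up 51.2% of it. Lyz2 alone was at 5917, 6421 and 11054 CPM (lowest, median and highest library) with LPS and 6071, 7204 and 14670 CPM with both. WT libraries held 10424 to 11033 CPM with LPS and 10873 to 11326 CPM with both. The highest Bmal1-KO library of each arm thus lay above the WT range, and its deletion was not tested. Markers of 8 other cell types were read the same way, and none of the 9 lists had a called gene in the 12 or in the 8 libraries. The neutrophil sum was 459.5 to 1223 CPM with LPS and 466.8 to 1172 CPM with both, and the T and NK cell sum stayed between 3.169 and 9.969 CPM. The dendritic cell sum, 99.0% of it from Itgax, which macrophages also express, was 1152 to 1642 CPM with LPS and 716.5 to 1264 CPM with LPS and CCM. The mast cell and basophil sum was 14.85 to 23.6 CPM against 8.264 to 18.27 CPM, with Tpsb2 at 0 in every library. Both pairs of ranges overlapped, their medians were lower with CCM, and their part in the results was not tested. The sums of the B cell, erythroid, fibroblast and osteoclast lists overlapped between the arms as well. In bulk RNA, fewer cells of a type and less RNA per cell cannot be told apart.

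**Figure D1:**
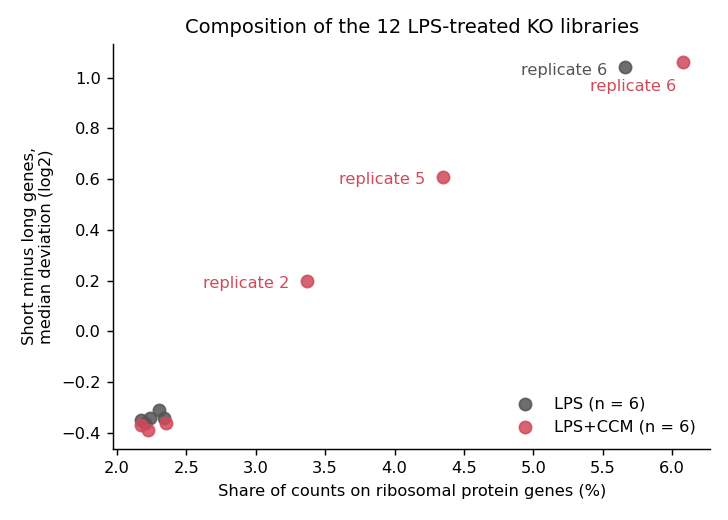
Share of counts on ribosomal protein genes (percent, x axis) against the difference between short and long genes in median deviation (log2, y axis), 1 point per library, for 6 LPS and 6 LPS+CCM libraries of Bmal1-KO macrophages. A tight group of 8 lies between 2.17% and 2.35%, and LPS replicate 6 and LPS+CCM replicates 2, 5 and 6 lie to the upper right of it.

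Arntl, which encodes BMAL1, was at 2.13, 7.19 and 9.04 CPM with LPS and 3.94, 6.97 and 9.32 CPM with LPS and CCM (log2 fold change -0.06, SE 0.296, adjusted p = 0.960, edgeR across all genes). The arms overlapped over their whole range. WT libraries held 8.03 to 10.2 CPM with LPS and 11.5 to 12.9 CPM with both. The count sums reads over the gene, including exons outside a floxed segment, so it does not check the deletion.

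With edgeR, CCM lowered 14 genes in LPS-treated Bmal1-KO macrophages, most of them LPS-induced, and raised 1. At an adjusted p of at most 0.05 (edgeR quasi-likelihood test, two-sided, Benjamini-Hochberg over all genes tested), 15 of 13386 genes were called, which is 0.112%. Of these 14 were lower with CCM (0.105%) and Glul alone was higher (0.00747%). DESeq2, the method of the study, called 180 genes (135 lower and 45 higher), and voom with quality weights 768 (497 lower and 271 higher). With the replicate number as a block, which paired these arms only in part, edgeR called 777 (554 lower and 223 higher). Without replicate 6, 170 of 13429 genes were called (1.27%), 128 lower (0.953%) and 42 higher (0.313%). Without the 4 libraries that stood apart, 471 of 13766 genes were called (3.42%), 283 lower (2.06%) and 188 higher (1.37%). All 15 genes were among the calls of both, which reuse the same libraries and so do not test the 15 again. The common biological coefficient of variation fell with them, from 0.315 over 12 libraries to 0.193 over 10 and 0.115 over 8. Leaving out 1 replicate number other than 6 left between 0 and 7 calls: 0 without replicate 1 or 2 (842 and 580 genes at an unadjusted p under 0.05), 7 without replicate 3, 2 without replicate 4 and 4 without replicate 5. Leaving out LPS replicate 6 alone gave 37 calls and LPS+CCM replicate 2 alone 3, so the count depended on single libraries. The direction of each of the 15 genes was the same in all of these fits.

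The lowered genes included secreted and cell surface proteins of the immune response. Cxcl10, the chemokine that draws CXCR3-bearing T cells and NK cells, stood at 1081 CPM in the lowest, 1336 in the median and 1577 in the highest LPS library, and at 557, 652 and 713 CPM with LPS and CCM. Every LPS+CCM library was below every LPS library. The log2 fold change was -1.09 (SE 0.127, adjusted p = 0.00536, edgeR), a 2.13-fold lower level, and it was -0.99 in the 8 libraries. In unstimulated Bmal1-KO cells Cxcl10 did not exceed 8.63 CPM. Il15, a cytokine that sustains NK cells and memory T cells, ran from 74.5 to 110 CPM (median 101) with LPS and from 38.3 to 60.2 CPM (median 53.4) with CCM. These groups did not overlap either, with a log2 fold change of -0.90 (SE 0.147, adjusted p = 0.0407, edgeR).

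Edn1 encodes the precursor of endothelin-1, a vasoconstrictor peptide that activated macrophages also secrete. Its level was 76.2, 93.5 and 129 CPM in the lowest, median and highest LPS libraries and 35.4, 46.0 and 59.0 CPM with CCM, a log2 fold change of -1.07 (SE 0.170, adjusted p = 0.0339, edgeR) without overlap. Cd69, an early activation antigen of leukocytes that holds them in tissue, was at 158, 214 and 271 CPM with LPS and at 76.0, 95.3 and 127 CPM with CCM. Its log2 fold change was -1.10 (SE 0.161, adjusted p = 0.0179, edgeR), and the highest LPS+CCM library lay below the lowest LPS library. Both genes were near baseline without LPS, at no more than 3.27 CPM for Edn1 and 2.09 CPM for Cd69 in the unstimulated Bmal1-KO controls.

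Inhibitors of serine proteases made up 3 of the 14 lowered genes. Serpina3f and Serpina3g are neighbouring serpins of the Serpina3 cluster on chromosome 12. Serpina3f fell from 20.0, 25 and 31.1 CPM to 9.40, 11.5 and 12.8 CPM (lowest, median and highest library of each arm). Serpina3g fell from 49.9, 54.7 and 83.8 CPM to 25.6, 29.2 and 34.5 CPM. The log2 fold changes were -1.17 (SE 0.135, adjusted p = 0.00536, edgeR) and -1.03 (SE 0.152, adjusted p = 0.0179, edgeR), and neither gene's arms overlapped. The Serpina3 genes are close copies, so reads may have been split between them and the value of each is uncertain. Spint1, a membrane-bound Kunitz-type inhibitor of serine proteases, went from 6.87, 9.39 and 13.6 CPM to 3.01, 3.83 and 4.22 CPM, a log2 fold change of -1.40 (SE 0.178, adjusted p = 0.00981, edgeR). It differed from the other lowered genes in its response to LPS: unstimulated Bmal1-KO controls held 18.4 to 36.1 CPM of Spint1, above all LPS libraries, and CCM took it further from that level.

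The remaining lowered genes act inside the cell. Iigp1 encodes an interferon-induced GTPase that attacks the vacuoles of intracellular pathogens, and it was at 104, 128 and 150 CPM with LPS and 44.3, 51.4 and 81.3 CPM with CCM. That is a log2 fold change of -1.16 (SE 0.168, adjusted p = 0.0179, edgeR) with no overlap. Apol7c, of the interferon-responsive apolipoprotein L family, was at 14.3 to 25.5 CPM and 6.48 to 10.4 CPM (log2 fold change -1.24, SE 0.172), and Dok7, an adaptor best known for activating the kinase MuSK at the neuromuscular junction, at 5.18 to 8.78 CPM and 1.86 to 3.31 CPM. Dok7 had the largest change of the set, -1.52 on the log2 scale (SE 0.202, adjusted p = 0.0120, edgeR). Mxd1, a MAX-binding repressor that opposes MYC, changed by -0.69, the nuclear immediate early protein Csrnp1 by -0.77, the PHD finger protein Phf11a by -0.85 and the pleckstrin homology domain protein Plekha4 by -0.90, all at an adjusted p of 0.0431 (edgeR). All 4 had arms that did not overlap. The genes Mxd1, Csrnp1 and Plekha4 overlap other annotated genes, as do Cxcl10, Edn1 and Glul, and the sources used here do not say whether strand was used in counting.

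Glul encodes glutamine synthetase, which makes glutamine from glutamate and ammonia. It stood at 57.5, 63.0 and 75.8 CPM in the lowest, median and highest LPS libraries and at 85.9, 106 and 117 CPM with LPS and CCM. Each LPS+CCM library was above each LPS library, with a log2 fold change of 0.68 (SE 0.109, adjusted p = 0.0387, edgeR), a 1.6-fold higher level. Glul was lowered by LPS, from 218 to 249 CPM in unstimulated Bmal1-KO controls, so the LPS+CCM libraries lay between the unstimulated and the LPS-only level. CCM without LPS left it at 195 to 238 CPM (log2 fold change -0.08, SE 0.0770, adjusted p = 1.0, edgeR).

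**Figure D2:**
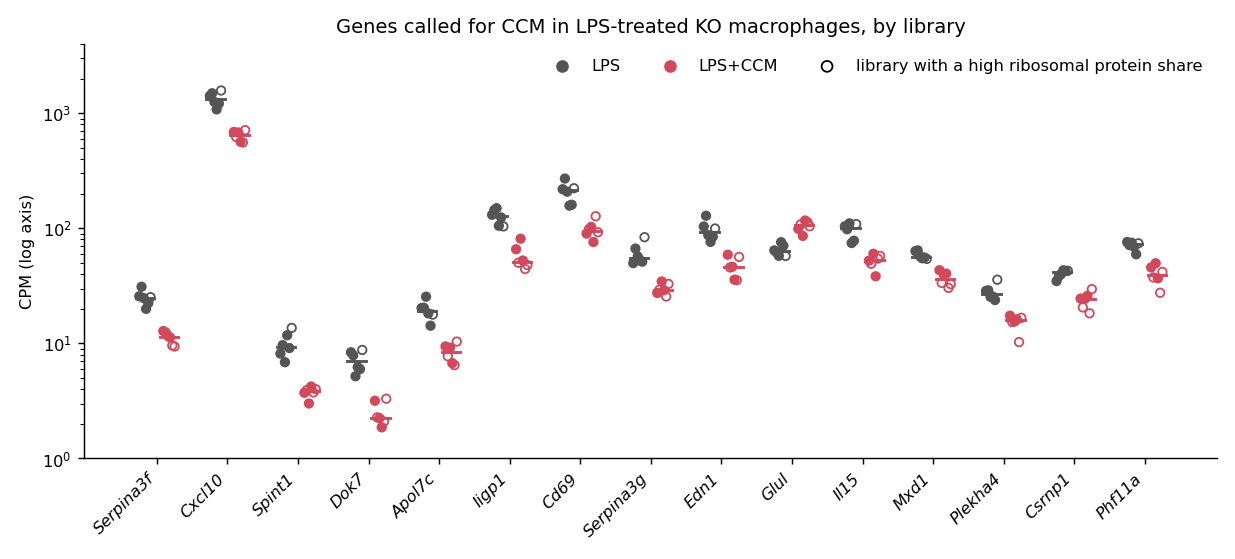
Levels of the 15 called genes (CPM, log axis) in each Bmal1-KO library, LPS in grey beside LPS+CCM in red, with a line at the median of each arm and open circles for the 4 libraries with a high ribosomal protein share. The 14 lowered genes have every LPS+CCM library below every LPS library and Glul has the reverse order, and since CPM is not divided by gene length, heights compare arms and not genes.

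The start regions of some called genes are printed because the lowered genes include interferon-responsive genes and the study's target binds E-boxes. They are the 250 bases before the RefSeq start on GRCm38.p6, 5′ to 3′ on the strand of the gene. Capitals mark letters that match 1 of 5 motifs searched on both strands: the E-box CACGTG, the interferon-stimulated element GAAANNGAA, a STAT element TTCNNNGAA, an AP-1 element TGANTCA and a kB element GGGANTTNC. Cxcl10 (chr5:92348890-92349139, minus strand) held 3 of them, an interferon-stimulated element starting 213 bases before the start, a kB element at 103 and an AP-1 element at 74. Serpina3f (chr12:104214294-104214543, plus strand) held an interferon-stimulated element and a STAT element that overlap, and Edn1 (chr13:42301226-42301475, plus strand) the former alone. Glul (chr1:153899679-153899928, plus strand), which rose, also held 1 match to the interferon-stimulated element, and Spint1 (chr2:119237110-119237359, plus strand), the LPS-lowered gene among those that fell, held none of the 5.
Cxcl10: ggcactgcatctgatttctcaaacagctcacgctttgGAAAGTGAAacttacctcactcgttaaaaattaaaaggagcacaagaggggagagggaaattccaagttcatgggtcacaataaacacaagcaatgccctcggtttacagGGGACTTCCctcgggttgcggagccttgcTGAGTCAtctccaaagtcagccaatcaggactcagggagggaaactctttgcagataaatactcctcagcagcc
Serpina3f: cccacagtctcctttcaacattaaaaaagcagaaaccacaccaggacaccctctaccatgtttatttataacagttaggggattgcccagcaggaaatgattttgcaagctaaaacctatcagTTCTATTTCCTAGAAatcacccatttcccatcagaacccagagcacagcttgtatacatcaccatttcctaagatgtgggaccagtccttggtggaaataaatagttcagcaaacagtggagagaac
Edn1: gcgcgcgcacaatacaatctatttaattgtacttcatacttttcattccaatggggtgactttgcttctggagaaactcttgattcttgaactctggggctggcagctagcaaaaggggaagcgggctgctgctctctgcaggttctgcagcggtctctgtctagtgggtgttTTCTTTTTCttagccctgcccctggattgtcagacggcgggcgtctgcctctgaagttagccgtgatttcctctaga
Glul: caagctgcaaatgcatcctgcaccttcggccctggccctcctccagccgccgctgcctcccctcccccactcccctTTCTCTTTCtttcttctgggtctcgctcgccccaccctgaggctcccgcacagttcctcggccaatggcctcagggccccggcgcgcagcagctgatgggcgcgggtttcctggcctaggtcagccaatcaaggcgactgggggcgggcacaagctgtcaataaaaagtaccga
Spint1: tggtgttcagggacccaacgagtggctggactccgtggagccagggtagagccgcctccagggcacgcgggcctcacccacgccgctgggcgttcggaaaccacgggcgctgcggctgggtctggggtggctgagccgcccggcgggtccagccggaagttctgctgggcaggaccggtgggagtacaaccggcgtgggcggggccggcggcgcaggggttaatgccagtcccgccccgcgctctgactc

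Start regions were found for 9085 of the tested genes and for 12 of the 15 called genes. Of the 11 lowered genes among these, 5 held the interferon-stimulated element, against 6.68% of all 9085. The element was held by 8 of 9 interferon-induced GTPases and 16 of 33 antiviral effectors with a start region, and by 1 of 16 cytokines (6.25%) and 4 of 14 chemokines (28.6%). Among genes called in the 8 libraries it was held by 33 of 187 that were lower (17.6%) and 6 of 134 that were higher (4.48%), and the AP-1 element by 22 of 187 (11.8%) and 2 of 134 (1.49%) against 4.27% of all. The E-box CACGTG was held by none of the 12 called genes with a start region and by 8.65% of all genes, and by 13 of 187 lower (6.95%) and 9 of 134 higher genes (6.72%) in the 8 libraries. These are matches of letters in a window and not sites of binding.

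The arms were also separated in genes that did not pass the test. Over all tested genes, the 15 called included, in 97 of 13386 genes (0.725%) every LPS+CCM library lay below every LPS library, and in 78 (0.583%) every one lay above. The non-overlapping genes that were also called without replicate 6 named some larger changes. Serpinb2, plasminogen activator inhibitor 2, was at 155, 311 and 443 CPM with LPS and 43.6, 97.3 and 154 CPM with CCM, a log2 fold change of -1.63 (SE 0.314, adjusted p = 0.0679, edgeR) and -1.56 in the 8 libraries (adjusted p = 0.0147, edgeR). Klrk1, which encodes the activating receptor NKG2D, was at 5.30 to 8.18 CPM and 1.85 to 4.48 CPM (log2 fold change -1.07). Igsf9 and Txlnb, at low levels, had log2 fold changes of -1.16 and -1.08.

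Among non-overlapping genes on the higher side, small chromatin proteins of the HMGN family stood out by size. Hmgn1, which binds nucleosomes and loosens chromatin, was at 36.1, 41.1 and 76.7 CPM with LPS and 78.4, 91.8 and 160 CPM with CCM (log2 fold change 1.16, SE 0.236, adjusted p = 0.0827, edgeR). In the 8 libraries it read 36.1 to 47.1 CPM against 78.4 to 80.3 CPM, a log2 fold change of 0.98 (adjusted p = 0.00165, edgeR). Its relative Hmgn2 had values of 47.8, 59.9 and 86.7 CPM and 92.4, 105 and 187 CPM (log2 fold change 1.01, adjusted p = 0.0961, edgeR). Both genes have many processed copies in the genome, 2 of which (Hmgn2-ps1 and Gm10282) were on the same side at 1.02 and 0.97 (log2), so their reads may be shared and the values are uncertain. The transcripts are short and their highest levels were in the libraries with a high ribosomal protein share, and the part of that in the 12-library value was not tested. Kcnk13, a potassium channel of the K2P family, read 10.8 to 20.1 CPM and 21.2 to 41.8 CPM (0.85 on the log2 scale). Panx1, the pannexin channel that releases ATP, had a log2 fold change of 0.69 and the electron carrier Cyb5a one of 0.75, and Tmem273 and Kctd1 had 0.93 and 0.72. Adjusted p-values of these genes ran from 0.0537 for Gm10282 to 0.1 for Kctd1 (edgeR) over the 12 libraries.

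The interferon-induced genes were read as 2 lists, which like the other lists here were drawn up with earlier results of these data known, and are described by counts beside the median of all tested genes (0.004 on the log2 scale, 6619 of 13386 negative). Of 19 interferon-induced GTPases, all 19 had a negative log2 fold change, with a median of -0.77, and Iigp1 was the 1 called. In 5 of them (Gbp6, Gbp8, Gbp11, Irgm1 and Iigp1) every LPS+CCM library lay below every LPS library, against 0.725% of all genes. In the 8 libraries 11 of the 19 were called lower (2.06% of all genes) and 0 higher (1.37% of all genes). Without replicate 6 alone 8 were lower (0.953% of all genes). The same shares apply to the counts of the lists below. The mean of the list's centred log2 levels overlapped between the arms, at -0.14 to 0.64 per library with LPS and -0.93 to 0.01 with CCM. Gbp4, a guanylate-binding protein, was at 32.3, 60.6 and 73.1 CPM with LPS and 18.3, 24.3 and 36.6 CPM with CCM. These arms overlapped (log2 fold change -1.17, SE 0.236, adjusted p = 0.0824, edgeR), but without the 4 libraries they read 55.2 to 73.1 CPM against 28.6 to 36.6 CPM (log2 fold change -0.91, adjusted p = 0.00383, edgeR). Guanylate-binding proteins are close paralogues and the split of reads among them is uncertain.

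Of 44 antiviral effectors, 42 were negative with a median of -0.45, and none was called in the 12 libraries. In 5 of them every LPS+CCM library lay below every LPS library (0.725% of all genes). In the 8 libraries 19 of 44 were called lower (2.06% of all genes) and 0 higher (13 lower without replicate 6). Isg20, an exonuclease that degrades viral RNA, was at 140, 154 and 195 CPM with LPS and 82.0, 99.6 and 119 CPM with CCM (log2 fold change -0.68, SE 0.130, adjusted p = 0.0679, edgeR). Mx2, a dynamin-like antiviral GTPase, had a log2 fold change of -0.66. Per library, the mean of this list's centred log2 levels was 0.11 to 0.35 with LPS and -0.38 to -0.07 with CCM.

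Genes upstream of these effectors gave values of varied size. Ifnb1, interferon beta itself, was near the limit of detection at 0.986, 1.49 and 3.41 CPM with LPS and 0.348, 0.763 and 1.22 CPM with CCM (log2 fold change -1.26, SE 0.370, adjusted p = 0.271, edgeR), with overlapping arms. The 23 genes of interferon signalling had a median of -0.17, with 20 negative and none called. In the 8 libraries Irf1 and Stat3 were lower and the receptor subunit Ifngr1 was higher. Irf1, an interferon-inducible transcription factor, had 181, 225 and 334 CPM with LPS and 117, 151 and 187 CPM with CCM (log2 fold change -0.67, adjusted p = 0.190, edgeR). Npas4, a neuronal activity-dependent transcription factor, was too low to be tested over the 12 libraries, at 0.259 to 1.70 CPM with LPS and 0.195 to 0.424 CPM with CCM.

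The 24 tested cytokine genes (of 27 listed) all had negative log2 fold changes, with a median of -0.54 against 0.004 over all genes. Il15 was the 1 called, and arms did not overlap in Il1a, Il1rn, Il15 and Osm (0.725% of all genes on the lower side). The mean centred log2 level over the list separated the arms, at 0.25 to 0.45 in the 6 LPS libraries and -0.39 to -0.20 in the 6 LPS+CCM libraries. In the 8 libraries 11 of 25 were called lower (2.06% of all genes), among them Il6, Il12a, Il12b, Il18 and Il27. None was called higher there, and 10 were lower without replicate 6. Il12a, the p35 subunit of interleukin 12, was at 34.3, 46.9 and 67.4 CPM with LPS and 14.9, 22.9 and 35.2 CPM with CCM (log2 fold change -1.02, adjusted p = 0.0810, edgeR). The arms overlapped at their edges over the 12 libraries and did not in the 8, where the log2 fold change was -1.10 (adjusted p = 0.00852, edgeR). Osm, oncostatin M, a cytokine of the interleukin 6 family, was at 13.1 to 19.9 CPM and 7.79 to 11.8 CPM (log2 fold change -0.79, adjusted p = 0.0662, edgeR).

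Chemokines were less uniform: 17 of 21 were negative, the median was -0.38 and Cxcl10 alone was called or separated. In the 8 libraries Cxcl10, Ccl2, Ccl3, Ccl4, Ccl7 and Ccl12 were called lower (2.06% of all genes), and 3 chemokines without replicate 6 (0.953% of all genes). The mean centred log2 level of the list overlapped between the arms, at -0.02 to 0.67 with LPS and -0.38 to 0.11 with CCM. Cxcl9, which shares the receptor CXCR3 with Cxcl10, was at 87.0, 99.7 and 154 CPM with LPS and 35.6, 53.4 and 89.6 CPM with CCM, a log2 fold change of -0.98 (adjusted p = 0.0961, edgeR) with overlapping arms.

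Genes of NF-kB and Toll-like receptor signalling lay nearer to the median of all genes. The 22 NF-kB subunits and inhibitors had a median of -0.13 and the 23 genes of Toll-like receptor signalling one of -0.10 (-0.02 in the 8 libraries), with none called in either. Tlr3, the receptor for double-stranded RNA and itself an interferon-induced gene, had a larger value, at 62.7, 96.1 and 105 CPM with LPS and 43.6, 49.2 and 67.8 CPM with CCM (log2 fold change -0.79, adjusted p = 0.0858, edgeR). Tlr3, Tlr7 and Myd88 were called lower and Tlr13 higher in the 8 libraries. The 22 immediate early and AP-1 factors lay further from it, with a median of -0.30 and 17 negative. Of these Batf2, Ier2, Ier3 and Maff were lower in the 8 libraries.

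**Figure D3:**
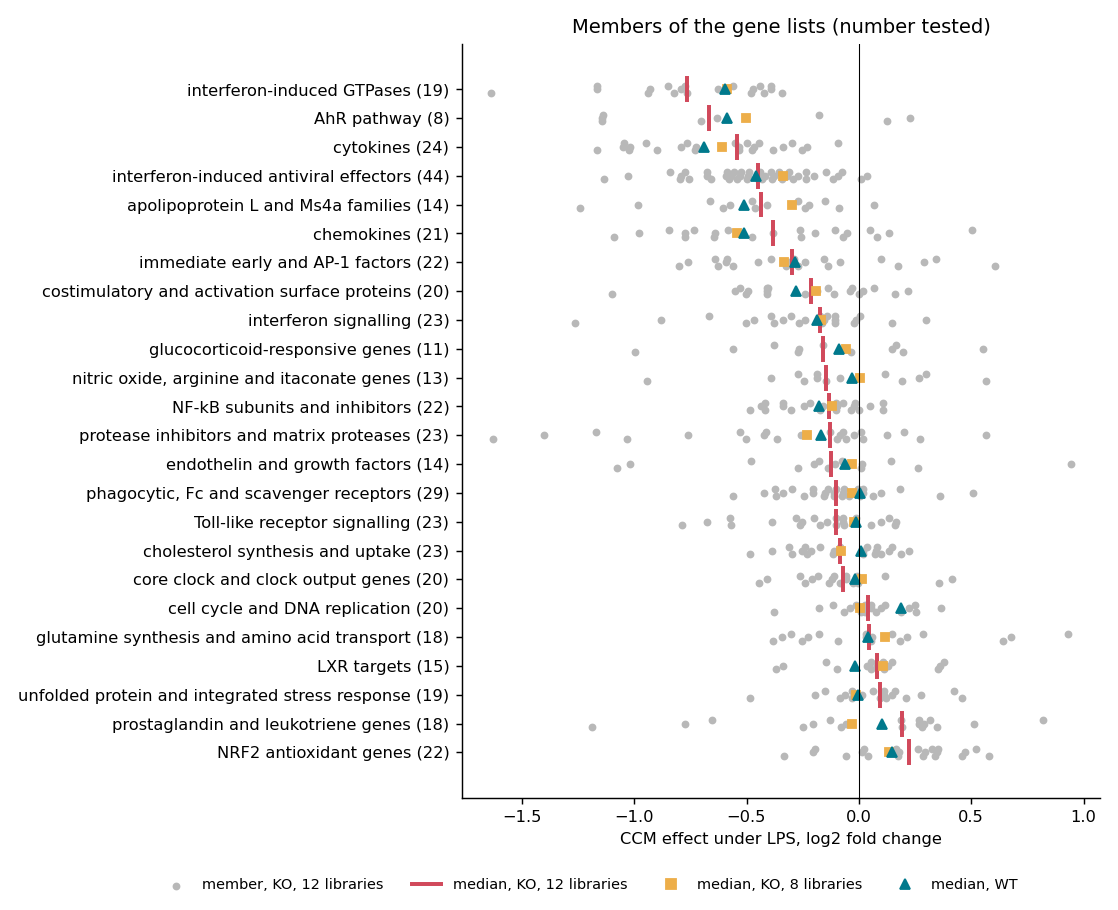
Log2 fold change of CCM under LPS for every tested member of the 24 gene lists in Bmal1-KO macrophages (grey points, number of genes in brackets), with the list median over 12 libraries (red line), over 8 libraries (yellow square) and in WT (blue triangle). Medians over 12 libraries are lowest for interferon-induced GTPases (-0.77), the AhR pathway (-0.67) and cytokines (-0.54) and highest for NRF2 antioxidant genes (0.22).

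Among genes for lipid mediators, Ptgs2, the inducible cyclooxygenase 2 that commits arachidonic acid to prostaglandins, had 541, 1447 and 1973 CPM with LPS and 263, 624 and 877 CPM with CCM. LPS replicate 6 was the low library of its arm, and the arms overlapped. The log2 fold change of -1.19 (SE 0.299, adjusted p = 0.156, edgeR) missed the threshold. Without the 4 libraries Ptgs2 was at 1356 to 1973 CPM against 599 to 877 CPM, -1.08 on the log2 scale (adjusted p = 0.00531, edgeR). Ptger2, a receptor for prostaglandin E2, was on the other side at 3.32, 8.87 and 10.5 CPM and 8.53, 15.4 and 17.2 CPM (log2 fold change 0.82, adjusted p = 0.271, edgeR; 0.83 in the 8 libraries, adjusted p = 0.00383). The list as a whole had a median of 0.19 over 18 genes and -0.03 in the 8 libraries. Nos2, inducible nitric oxide synthase, was at 175 to 433 CPM and 83.3 to 290 CPM (log2 fold change -0.94, adjusted p = 0.378, edgeR), and Odc1, which makes putrescine from ornithine, at 60.6 to 98.1 CPM and 97.9 to 144 CPM (0.56, adjusted p = 0.192). The 13 genes of nitric oxide, arginine and itaconate metabolism had a median of -0.14, and 0.0039 in the 8 libraries.

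The NRF2 antioxidant genes lay mostly on the higher side, with 18 of 22 positive and a median of 0.22 (0.13 in the 8 libraries), but none was called over the 12 libraries. Hmox1, heme oxygenase 1, was at 2341, 2370 and 2877 CPM with LPS and 3048, 3653 and 4906 CPM with CCM. The arms did not overlap, the log2 fold change was 0.58 (SE 0.135, adjusted p = 0.121, edgeR), and in the 8 libraries it was 0.50 (adjusted p = 0.0262, edgeR). Srxn1, sulfiredoxin, had 0.35 with overlapping arms, and Nqo1, a quinone reductase of the same list, had -0.34. Among glutamine and amino acid transport genes, Glul was called, and Slc43a2, a transporter of large neutral amino acids, had 56.5, 72.4 and 98.6 CPM with LPS and 78.2, 122 and 165 CPM with CCM (log2 fold change 0.64, adjusted p = 0.248, edgeR; 0.83 in the 8 libraries, adjusted p = 0.00949). Slc16a6 was called with it in the 8 libraries, at 9.67 to 17.3 CPM against 29.5 to 32.6 CPM.

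A pair of lists concerns pathways driven by PAS domain transcription factors, the family to which BMAL1 belongs. In the AhR pathway, 6 of 8 tested genes were negative with a median of -0.67, and none was called. The mean centred log2 level of the list overlapped between the arms, at -0.16 to 0.5 per library with LPS and -0.71 to -0.08 with CCM. Ahrr, the repressor that AhR induces against itself, was at 20.8, 63.2 and 71.9 CPM with LPS and 10.8, 24.7 and 38.7 CPM with CCM (log2 fold change -1.14, SE 0.325, adjusted p = 0.254, edgeR). The lowest LPS value was that of replicate 6, and without the 4 libraries the arms read 55.9 to 71.9 CPM and 26.5 to 38.7 CPM (log2 fold change -0.88, adjusted p = 0.00675, edgeR). Cyp1b1, a cytochrome P450 induced through AhR, had a log2 fold change of -1.14 (adjusted p = 0.181, edgeR). The 20 core clock and clock output genes had a median of -0.07 (16 of 20 negative), with none called and no gene whose arms were separated. Over all genes 0.725% were separated on the lower and 0.583% on the higher side, so none among 20 is near that share. Over the 8 libraries the median turned to 0.013, with 8 of 20 negative. Tef, a PAR bZIP output factor, was at 14.6 to 19.0 CPM with LPS and 17.2 to 24.5 CPM with CCM (log2 fold change 0.36, adjusted p = 0.372, edgeR; 0.46 in the 8 libraries, adjusted p = 0.0262), and Bhlhe41, a transcriptional repressor of the clock, had 0.41.

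The other lists gave fewer values. Costimulatory and activation surface proteins had a median of -0.21 over 20 genes with Cd69 called, and protease inhibitors and matrix proteases one of -0.13 over 23 genes (-0.23 in the 8 libraries) with the 3 inhibitors called. The apolipoprotein L and Ms4a families had -0.44 over 14 of 21 genes, with Apol7c called. Phagocytic, Fc and scavenger receptors had -0.10 over 29 genes (-0.03 in the 8 libraries), of which C5ar1, the receptor of the complement fragment C5a, had separated arms at 507 to 627 CPM and 395 to 503 CPM (log2 fold change -0.34, adjusted p = 0.267, edgeR). Endothelin and growth factors (-0.12, and -0.03 in the 8 libraries), cholesterol synthesis and uptake (-0.08), LXR targets (0.08), the unfolded protein and integrated stress response (0.09, and -0.012 in the 8 libraries), glucocorticoid-responsive genes (-0.16, and -0.06 in the 8 libraries), glutamine and amino acid transport (0.04) and cell cycle and DNA replication (0.04) had medians within 0.2 of that of all genes. Mki67, a marker of dividing cells, was at 95.8 to 150 CPM and 82.2 to 114 CPM (log2 fold change -0.38, adjusted p = 0.391, edgeR). It lay on the smaller side of its list, in which 6 of 20 cell cycle genes were negative (9 of 20 in the 8 libraries). Mcm3 and Ccne2 of the same list were positive in every alternative fit, at 0.12 to 0.30 and 0.16 to 0.65 on the log2 scale.

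To relate the CCM effect to the LPS response, genes were sorted by the effect of LPS in WT macrophages, whose libraries are not part of the Bmal1-KO comparison. In WT, 4441 of 14501 genes were raised by LPS (30.6%) and 4698 lowered (32.4%). This split moved with the scaling of libraries, to 3438 and 6099 with upper-quartile factors and 2551 and 8060 with total counts, which shifted the median of all genes to -0.23 and -0.47 from -0.05 on the log2 scale. Of the 14 genes that CCM lowered in Bmal1-KO cells, 13 were raised by LPS in WT, and the exception was Spint1. Glul, the gene that CCM raised, was lowered by LPS. In the 8 libraries, 261 of the 283 lowered genes were raised by LPS and 130 of the 188 higher genes were lowered by it. Non-overlapping arms were split in the same way, with 80 lower and 11 higher among LPS-raised genes and 7 lower and 52 higher among LPS-lowered genes.

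Among LPS-raised genes the CCM effect was larger where the LPS effect was larger. Over all 4396 LPS-raised genes tested in both, the median log2 fold change of CCM in Bmal1-KO cells was -0.11, with 65.9% negative (-0.057 and 65.7% in the 8 libraries). Over the 1862 genes raised by at least 1 on the log2 scale it was -0.26 (-0.17 in the 8 libraries), over the 919 raised by at least 2 it was -0.35 (-0.25) and over the 567 raised by at least 3 it was -0.40 (-0.32), with 83.07% of these negative. For LPS-lowered genes the medians ran the other way, at 0.10 over 4252 genes, 0.11 over 1705, 0.14 over 410 and 0.21 over 79. In the 8 libraries these medians were 0.09, 0.13, 0.14 and 0.17. The share of negative values changed little over the 12 libraries, at 33.68%, 35.13%, 33.9% and 34.18%. Genes not called for LPS had 0.016 over 4672. Without LPS, CCM gave the LPS-raised genes of at least 1 a median of -0.02 and those of at least 3 one of -0.17 in Bmal1-KO cells.

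Seen library by library, the LPS-raised genes (at least 1 on the log2 scale) lay a median of 1.77 to 2.02 above the unstimulated Bmal1-KO mean with LPS and 1.62 to 1.88 with LPS and CCM. These ranges overlapped. Without the 4 libraries they were 1.94 to 2.02 and 1.79 to 1.88 and did not. The LPS-lowered genes lay at -1.54 to -1.34 and at -1.47 to -1.19, overlapping with and without the 4 libraries.

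**Figure D4:**
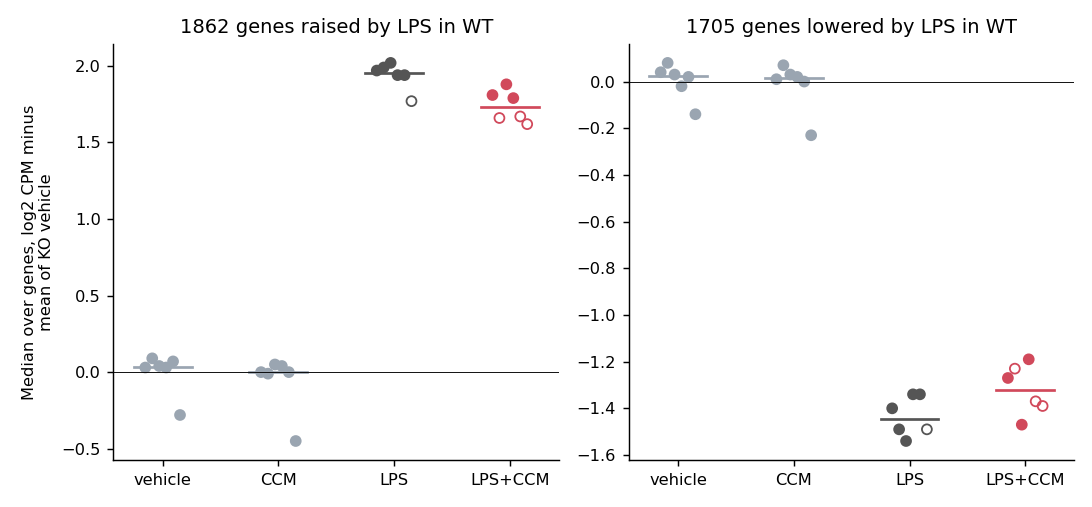
Median over genes of the log2 CPM minus the mean of the DMSO (vehicle) libraries, 1 point per Bmal1-KO library in 4 groups of 6, for 1862 genes raised (left) and 1705 genes lowered (right) by LPS in WT by at least 1 on the log2 scale. Lines mark group medians and open circles the 4 LPS-treated libraries that stood apart. Replicate 6 of vehicle and of CCM alone, drawn filled, held still higher ribosomal protein shares (8.05% and 9.44%). The LPS+CCM libraries lie at 1.62 to 1.88 on the left against 1.77 to 2.02 for LPS.

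The same exposure in WT macrophages gave 1621 calls, 1057 lower (7.78%) and 564 higher (4.15%) of 13579 genes (733 lower and 1539 higher with total counts), and 3220 calls when replicate numbers, which paired these libraries, were entered as a block. All 15 genes called in Bmal1-KO cells were called in WT with the same sign, at sizes of 0.55 to 1.75 on the log2 scale against 0.68 to 1.52 in Bmal1-KO. Of the 170 genes called without replicate 6, 155 were called in WT (91.18% of the 170 and 9.562% of the 1621), and all 170 had the same sign. Of 470 of the 471 genes of the 8 libraries that were tested in WT, 402 were called there (85.53% of the 470 and 24.8% of the 1621) and 468 had the same sign. Cxcl10, for example, was at 1296 to 1396 CPM with LPS and 537 to 637 CPM with both in WT (log2 fold change -1.18, SE 0.0624), next to -1.09 in Bmal1-KO. For Glul the WT value was 0.76 (SE 0.0740).

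The difference between the genotypes was tested as an interaction over the 18 LPS libraries. None of 14546 genes was called (0.0%) by edgeR, 72 had an unadjusted p under 0.05, and DESeq2 called 0 with 175 under an unadjusted 0.05. On simulated counts the edgeR test recovered 8.0% of genes that differed by 1 on the log2 scale. The absence of calls therefore does not show that the effects were equal. For the 15 genes the difference of Bmal1-KO minus WT ran from -0.13 to 0.31 on the log2 scale and all 15 intervals (95%) included 0. The intervals reached 0.35 to 0.69 to either side, so smaller differences in the CCM effect were not detectable at this spread. For Cxcl10 the difference was 0.11 (-0.28 to 0.49), for Spint1 -0.02 (-0.68 to 0.64) and for Glul -0.07 (-0.43 to 0.28). Arntl had -0.47 (-1.39 to 0.45).

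**Figure D5:**
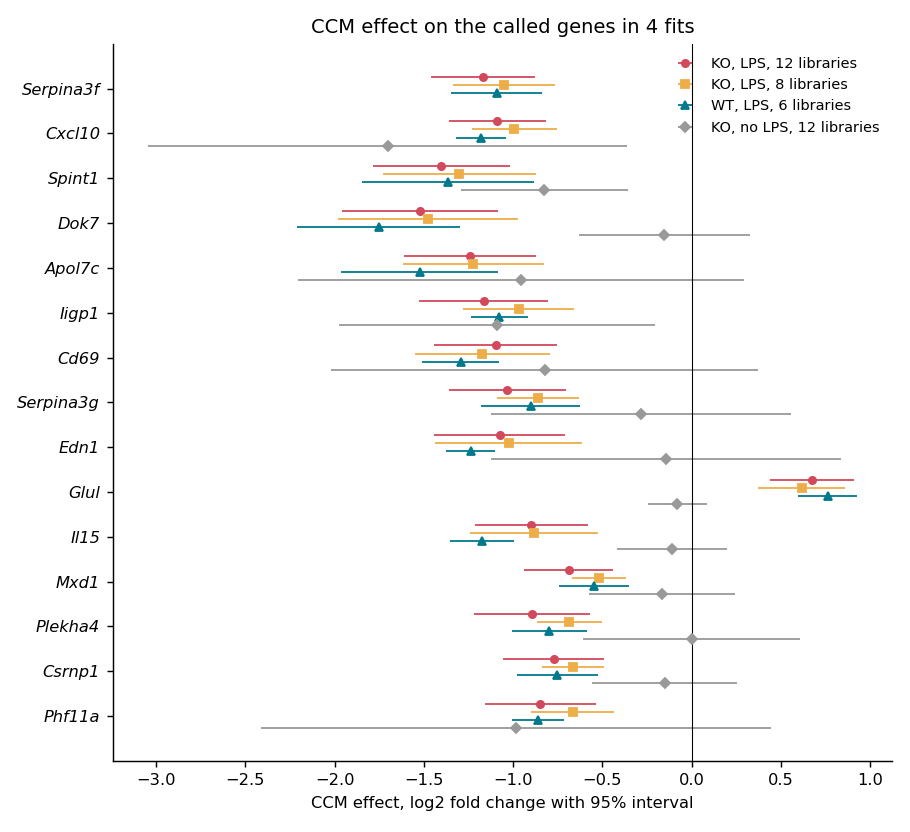
Log2 fold change of CCM with its 95% confidence interval (x axis) for the 15 called genes, under LPS in Bmal1-KO macrophages (red, 12 libraries; yellow, 8 libraries), under LPS in WT (blue, 6 libraries) and without LPS in Bmal1-KO macrophages (grey, 12 libraries). Bmal1-KO and WT under LPS lie side by side for each gene, and without LPS Glul is at -0.08 and Serpina3f has no value because it did not pass the filter.

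Without LPS, CCM gave no call among 13799 genes in Bmal1-KO macrophages (0.0%; 333 at an unadjusted p under 0.05). DESeq2 called 24, and edgeR called 429 with the replicate number as a block, which paired these libraries. Ribosomal protein genes took 8.05% of counts in replicate 6 with DMSO and 9.44% with CCM. The other unstimulated Bmal1-KO libraries held 3.15% to 4.04%. Without replicate 6 edgeR called 141 genes. Replicate 6 of both arms was also part of the LPS by CCM interaction below. Of the 15 genes, 14 could be tested there. Spint1 was at 18.4, 22 and 36.1 CPM with DMSO and 10.7, 12.7 and 20.1 CPM with CCM (log2 fold change -0.83, SE 0.216, adjusted p = 1.0, edgeR), the 2 arms overlapping. Cxcl10 and Iigp1, nearly silent without LPS, had -1.70 (SE 0.618) and -1.09 (SE 0.408), while Edn1, Il15 and Dok7 had -0.14, -0.11 and -0.15. The lists of interferon-induced GTPases and antiviral effectors had medians of -0.79 and -0.39 there, at low levels, and the cytokines -0.24.

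Whether LPS changed the effect of CCM was tested as an interaction over the 24 Bmal1-KO libraries. Of 14588 genes 1 was called (0.00685%), with 536 at an unadjusted p under 0.05, and it was Glul. Its effect was 0.78 higher on the log2 scale with LPS than without (SE 0.125, adjusted p = 0.0334, edgeR). The call was lost when any 1 replicate number from 1 to 5 was left out (adjusted p = 0.134 to 1.0, edgeR) and with normalisation by total counts (0.344) or without the filter on low counts (0.814), with values of 0.75 to 0.80 in those fits. DESeq2 called 12 genes, the fit without the libraries that stood apart 27, and edgeR with the replicate number as a block 81 (27 higher and 54 lower), where numbers paired the unstimulated arms with each other and with the LPS arm. For the other 14 genes the difference had intervals that included 0 in all but 5, and none was called without the block. Dok7 had the largest, -1.35 on the log2 scale (adjusted p = 0.308, edgeR).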

How the data were processed

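Poly(A) RNA of 36 macrophage cultures was sequenced, and the authors deposited raw gene counts per library, made with fastp, HISAT2 2.0.5 and featureCounts 1.5.0-p3 on mm10 according to the submitters' processing notes. All 36 count columns were mapped to samples by their labels and 0 were left out. FPKM values and columns holding the authors' own comparisons in the deposited table were not used, and strand use in counting is not given in the sources used here. Coordinates matched GENCODE M21 for 53548 of 54495 annotated genes. Library totals ran from 13469262 to 28288923. Within the LPS arm and within the LPS+CCM arm of Bmal1-KO, no 2 libraries agreed within sampling noise (lowest chi-square per degree of freedom 4.34 over 30 pairs). The other groups were not checked in this way.

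Each comparison was fitted on its own libraries across all genes with edgeR 4.0.16 in R 4.3.3 (filterByExpr, TMM, quasi-likelihood test, no block), and genes were called at an adjusted p of at most 0.05. The study compared pairs of groups with DESeq2, which was an alternative here (DESeq2 1.42.0), as were limma 3.58.1 with voom quality weights, other normalisations, no filter, a replicate block, fits without single libraries and, chosen after seeing the data, a fit without 4 libraries and one with the ribosomal protein share as a covariate. On simulated counts, 40.0% of 200 genes changed by 1 on the log2 scale were recovered for CCM under LPS in Bmal1-KO with 2 false calls, and 69.0% with 13 false calls in WT. The corresponding shares were 8.0% for the genotype interaction, 22.0% for the LPS interaction and 34.0% for unstimulated Bmal1-KO. The simulated counts varied independently between genes, without a shift shared by the genes of a library. Recovery and false calls in the real libraries may therefore differ. Replicate numbers paired WT_LPS with WT_LPS+CCM (correlation of deviations 0.151 to 0.36 over 3 pairs) and unstimulated Bmal1-KO with CCM alone (0.337 to 0.839 over 6 pairs).

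The members, gene lists and tests were chosen with earlier results of these data known. Genes named were those called, up to 3 members per list with the smallest unadjusted p, up to 10 per direction with the largest change among genes called without replicate 6 whose arms did not overlap (average log2 CPM of at least 1), Arntl, Npas4 and any of these called for an interaction. Other genes named as called in 8 libraries or as not overlapping were listed by those counts. Start regions came from RefSeq on GRCm38.p6, matched to genes within 2000 bases of their start.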

Additional observations from a re-analysis of the deposited data

Results flagged for a closer look

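In 36 groups of 6 values examined, 4 had 1 library far from the others by Dixon's test at the 95% level, which by chance marks about 1 group in 20. Of these, Spint1 and Arntl lay that far apart on the log2 scale and not on plain CPM. Spint1 was lowest in LPS+CCM replicate 3, at 3.01 CPM, and Plekha4 in LPS+CCM replicate 5, at 10.3 CPM, where the other 5 libraries of the arm lay closer together. Arntl was lowest in LPS replicate 6, at 2.13 CPM. The same library held the highest ribosomal protein share of its arm, 5.66%. The effect of CCM on Glul in Bmal1-KO macrophages differed between LPS-treated and unstimulated cells by 0.776 on the log2 scale (adjusted p = 0.0334, edgeR interaction test), the 1 gene called for that difference.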

How the results depend on the processing

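The count of genes called for CCM under LPS in Bmal1-KO macrophages, 15 with edgeR, was 180 with DESeq2, 768 with voom quality weights, 777 with the replicate block, 96 with all 24 Bmal1-KO libraries in 1 fit (10 of the 15 among them), 639 with the ribosomal protein share as a covariate and 471 in 8 libraries, the last pair chosen after seeing the data. Other normalisations and no filter gave 10 to 18. It ran from 0 to 170 without 1 replicate number or library. Replicate numbers paired these arms only in part, and the main fit had no block. Deviations of same-numbered libraries correlated at -0.102 to 0.813 over 6 pairs, lowest in pair 5. Of 6 LPS libraries 4 were closest to their own number. The same numbers paired the DMSO and LPS arms of Bmal1-KO at 0.3 to 0.83, so whether the block belongs in this fit was not settled. For the LPS by CCM interaction, 1 call became 12 with DESeq2, 0 with total counts and 0 with no filter, and 81 with the replicate block. It became 27 in the 18 libraries left without replicate 6 of every arm and LPS+CCM replicates 2 and 5, and 0 to 10 without 1 replicate number. The genotype interaction had 0 calls under each alternative run. CCM under LPS in WT had 1621 calls, 3220 with the replicate block and 893 to 1352 without 1 library (893 without LPS+CCM replicate 2, 958 without LPS replicate 2). CCM in unstimulated Bmal1-KO had 24 calls with DESeq2, 429 with the replicate block and 0 to 141 without 1 replicate number.

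Of 91 named genes tested under 28 alternatives, Arntl alone had values of the opposite sign, 6 in number: 0.18 with the covariate and 5 between 0.0049 and 0.072 without 1 replicate number or library, against -0.06. Its whole range without 1 replicate number or library was -0.24 to 0.072. The median of nitric oxide, arginine and itaconate genes was 0.0039 in 8 libraries against -0.14, that of clock genes 0.013 against -0.07, that of the unfolded protein and stress response -0.012 against 0.09, and that of LPS-raised genes was -0.26 for an LPS effect of at least 1 against -0.11. The causes were not tested.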

Other observations

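Gapdh, a glycolytic enzyme gene often used as a reference, had the smallest p of the genotype interaction under LPS, with a difference of 4.67 on the log2 scale (SE 1.35, unadjusted p = 0.00283, adjusted p = 1.0, edgeR). Its level was 10.4 to 19.2 CPM in the LPS libraries of Bmal1-KO macrophages. With LPS and CCM it was 162 CPM in replicate 5 and 294 CPM in replicate 6, and no more than 12.6 CPM in the other 4. WT libraries held 13.4, 58.9 and 76.6 CPM with LPS and 11.2 to 14.3 CPM with both. Gapdh shares its sequence with many pseudogene copies, so its reads may be split among them and its level is uncertain. Actb, the beta-actin gene, was at 5372 to 8825 CPM with LPS and 4463 to 7176 CPM with LPS and CCM in Bmal1-KO macrophages, and its highest library was replicate 6 in both arms.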
